A study of Mus musculus with 6 samples.

Results

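Matrix metalloproteinases (MMPs) are secreted or membrane-bound zinc enzymes that cut collagens, elastin, proteoglycans and many signalling proteins. They are made as inactive proenzymes, are opened by other proteinases, and are blocked by the tissue inhibitors of metalloproteinases (TIMPs). In inflamed gut, stromal cells, macrophages, neutrophils and injured epithelium are known sources of different family members. The transcripts followed here are those of 7 enzymes (Mmp2, Mmp3, Mmp7, Mmp10, Mmp12, Mmp13 and Mmp14) and 3 inhibitors (Timp1, Timp2 and Timp3), chosen by gene symbol. All 10 were among the 27202 genes measured. All 10 passed the filter for testing, a mean normalized read count of at least 10 over all libraries, as did 16246 genes in all. Mmp7 and Mmp12, with WT means of 2.32 and 6.83, passed it only through their cKO libraries.

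RNA sequencing was performed on whole colon tissue of mice 8 to 10 weeks of age that had drunk 2% dextran sulfate sodium (DSS), a polymer that injures the colonic epithelium, and were taken on day 7. The 3 cKO libraries came from Nedd4lf/fVillinCre mice, in which Villin-driven Cre deletes floxed Nedd4l (a HECT-family E3 ubiquitin ligase) in intestinal epithelial cells. The 3 WT libraries came from Nedd4lf/f littermates without Cre, so both groups carried the floxed allele and both received DSS. The floxed and the Cre lines were on a C57BL/6J background, no library was from mice without DSS, and the labels do not say which animals gave which library, so p-values measure the spread between these libraries only.

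The recovered depth was 14914367 to 17547270 reads per library. Nedd4l was read at 476, 942 and 566 normalized counts in cKO replicates 1, 2 and 3 and at 1241, 1271 and 1266 in WT replicates 1, 2 and 3. It was below every WT library in every cKO library, least so in cKO replicate 2 (log2 fold change -0.99 ± 0.24 SE, limma adjusted p = 0.225). Other cells of the tissue keep the gene under this Cre. The 6 libraries differed in more than genotype. Over all tested genes cKO replicate 2 correlated more closely with the WT libraries (mean Pearson's r 0.977) than with the other cKO libraries (0.966), and cKO replicate 1 had a mean r of 0.963 with the other cKO libraries and 0.948 with WT. Log2 fold changes from limma that leaving out either moved by over 1.5 times are given without it as well. All 12 epithelial markers were read in every library, with a summed level of 239867 to 293829 normalized counts in cKO and 271926 to 300486 in WT.

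The genes for 5 of the enzymes lie side by side on mouse chromosome 9, all on the plus strand. In the deposited coordinates, which are those of GRCm38, Mmp13 spans chr9:7272514-7283331, Mmp12 chr9:7344381-7369499, Mmp3 chr9:7445822-7455975, Mmp10 chr9:7502352-7510240 and Mmp7 chr9:7692090-7699585. The others are scattered, with Mmp2 at chr8:92827291-92853420, Mmp14 at chr14:54431612-54445364, Timp1 at chrX:20870166-20874735, Timp2 at chr11:118301069-118355740 on the minus strand and Timp3 at chr10:86300372-86349506.

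Promoter windows of RefSeq (GRCm38.p6, 250 bases before to 50 bases after a start) were given for 9 of the 10 genes, in 11 windows, and Mmp2 had none. They were searched for TGACTCA, the letters bound by the Jun and Fos dimers called AP-1 and read on the other strand as TGAGTCA, because several of these genes are textbook AP-1 targets. The motif was in at least 1 window of all 5 cluster genes and in none of the windows of Mmp14, Timp1, Timp2 and Timp3, against 5.20% of all 32851 windows of that length and 5.95% of 27025 genes. The 100 bases before the start are shown for 4 cluster genes, with the motif in capitals, and for Timp1, which had the order of Mmp3 and Mmp10 over the cKO libraries but has no match. All are written 5′ to 3′ on the plus strand.
Mmp13, chr9:7272414-7272513: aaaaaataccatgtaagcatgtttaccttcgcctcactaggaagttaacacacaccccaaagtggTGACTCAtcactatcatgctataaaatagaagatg
Mmp3, chr9:7445722-7445821: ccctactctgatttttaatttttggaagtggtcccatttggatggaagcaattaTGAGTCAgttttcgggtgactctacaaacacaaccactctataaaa
Mmp10, chr9:7502242-7502341: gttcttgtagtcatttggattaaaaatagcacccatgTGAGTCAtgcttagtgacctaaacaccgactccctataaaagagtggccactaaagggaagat
Mmp7, chr9:7691990-7692089: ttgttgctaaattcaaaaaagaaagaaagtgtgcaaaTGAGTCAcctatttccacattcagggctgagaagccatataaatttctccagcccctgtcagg
Timp1, chrX:20870066-20870165: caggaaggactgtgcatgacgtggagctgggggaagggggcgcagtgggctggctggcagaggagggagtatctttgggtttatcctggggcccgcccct
The motif began 35 bases before the start in Mmp13, 46 in Mmp3 and 63 in both Mmp10 and Mmp7. In Mmp12 it lay 44 bases before the second of its 2 annotated starts. Of all windows, 1.88% held it within the 100 bases before the start. A match describes these letters only, and its absence from a window says nothing about the factor.

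Every member had a higher mean log2 level in cKO than in WT, where 50.2% of all tested genes did. The median log2 fold change of the 10 was 1.83, beside 0.00 for all genes. It was 0.90 without cKO replicate 1 and 2.36 without cKO replicate 2, and all 10 stayed higher in both. No member passed the limma test at an adjusted p of 0.05, and neither did any other gene (0% of 16246, smallest adjusted p = 0.111). At an unadjusted p under 0.05 limma gave 1122 genes higher (6.91%) and 1151 lower (7.08%) in cKO. The higher ones included 3 members, Mmp7, Mmp12 and Mmp14. Values in all 3 cKO libraries above all 3 WT libraries were seen for 3 members, Mmp7, Mmp12 and Mmp2, against 10.5% of all genes. With 3 libraries against 3, an exact two-sided permutation test of a single gene cannot give a p below 0.1.

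Count models on the recovered reads answered differently. The edgeR quasi-likelihood test called no gene (smallest adjusted p = 0.0988, with 1214 genes higher and 1111 lower at an unadjusted p under 0.05, 6 members among the higher). DESeq2 called 1.56% of genes higher, among them Mmp7 and Timp1, and limma with a weight for each library called 1.61% higher, among them Mmp7 and Mmp12. Those weights ranged from 0.414 for cKO replicate 1 and 0.562 for cKO replicate 2 to 4.39 for cKO replicate 3, so that fit leaned on a single cKO library.

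**Figure D1:**
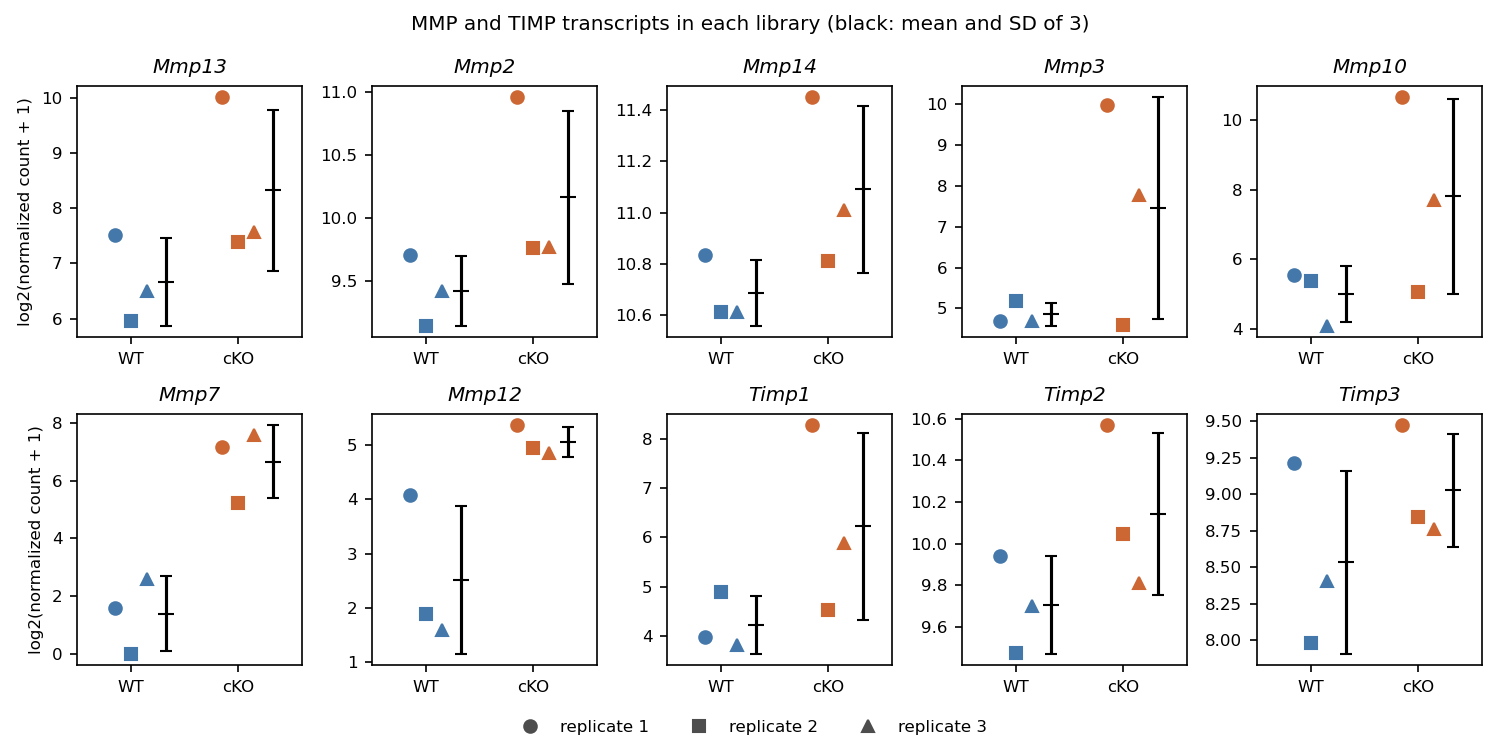
Level of each enzyme and inhibitor transcript in each library, as log2(normalized count + 1) on the vertical axis with a separate range per panel, for 3 WT (blue) and 3 cKO (orange) libraries. Marker shape gives the replicate number and black bars the mean and SD of 3. The groups are apart for Mmp7, Mmp12 and Mmp2, and cKO replicate 1 (orange circle) is the highest library in every panel but that of Mmp7.

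Mmp7, or matrilysin, is a small enzyme without the hemopexin domain that is made by epithelial cells, including injured and neoplastic colon epithelium and the Paneth cells of the small intestine. It was read at 144, 36.5 and 193 normalized counts in cKO replicates 1, 2 and 3, and at 1.98, 0 and 4.99 in WT replicates 1, 2 and 3. All cKO libraries were above all WT libraries, with cKO replicate 3 the highest and WT replicate 2 without a read, which at its depth allows up to 2.70 normalized counts. The group means of 124 ± 80.0 and 2.32 ± 2.51 (SD, n = 3) differed 53.6-fold, the WT mean resting on 7 reads in all. The log2 fold change of 5.28 ± 0.84 SE (95% interval 3.31 to 7.26) ranked 1st of 16246 tested genes, and its limma p ranked 45th (adjusted p = 0.137). With so few WT reads its size depends on the pseudocount, and it was 3.93 with a pseudocount of 5. Mmp7 passed the filter only through its cKO libraries, so neither rank is independent of that filter. The adjusted p was 0.175 in edgeR, 4.67e-09 in DESeq2 and 0.0164 in limma with library weights, and up to 0.486 over all alternatives tried. The log2 fold change was 5.03 without cKO replicate 1 (limma adjusted p = 0.138) and 6.00 without cKO replicate 2 (limma adjusted p = 0.0326).

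Paneth and small-intestinal markers were listed because Paneth cells make Mmp7. Of 9 genes 4 were in the table, with Sis and Apoa4 at 0 in at least 1 library, and their summed level was 104, 192 and 93.9 normalized counts in cKO replicates 1 to 3 and 48.4, 109 and 111 in WT replicates 1 to 3. Lyz1, looked at after its values were seen, made up most of the sum in every library but WT replicate 1. It was at 78.6, 149 and 81.5 in cKO replicates 1 to 3 and at 21.7, 69.3 and 90.9 in WT. Relative to the WT mean the 4 averaged 0.80, 1.05 and 0.23 on the log2 scale in cKO replicates 1 to 3 and -0.32, 0.23 and 0.09 in WT replicates 1 to 3. Their part in the Mmp7 level was not tested. The antisense gene AV064505 shares exon sequence with Mmp7 (7.36% of the 50-base stretches of Mmp7 transcripts) and was not analysed here. The library kit does not mark strand, so reads of the pair cannot be told apart.

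Mmp12, the elastase of macrophages, had the lowest mean of the 10 members over all 6 libraries (19.7 normalized counts), though Mmp7 was lower in WT. Mmp12 was read at 40.3, 29.8 and 27.9 normalized counts in cKO replicates 1 to 3 and at 15.8, 2.70 and 2.00 in WT replicates 1 to 3. The cKO libraries lay close together and above every WT library, and WT replicate 1 stood nearest to them. The means were 32.7 ± 6.66 and 6.83 ± 7.78 (SD, n = 3), from 96 and 21 reads, a 4.78-fold difference. The log2 fold change was 2.54 ± 0.65 SE (interval 1.03 to 4.05, limma adjusted p = 0.224, unadjusted p = 0.00471). The adjusted p was 0.0797 in DESeq2 and 0.0488 in limma with library weights, and up to 0.513 over all alternatives tried. The summed level of the 12 monocyte and macrophage markers overlapped between the genotypes, at 5038 to 6779 normalized counts in cKO and 2963 to 6211 in WT, with none at 0. All 12 nonetheless had a higher mean log2 level in cKO (median log2 fold change 0.48). Of these, 4 were at an unadjusted limma p under 0.05, against 6.91% of all genes. In 3 of the 12, Ly6c2, Fcgr1 and Ccr2, named after their values were seen, every cKO library was above WT, against 10.5% of all genes. Ly6c2, a monocyte marker, was at 396, 427 and 395 normalized counts in cKO replicates 1 to 3 and at 165, 81.9 and 165 in WT, even over the cKO libraries as Mmp12 was. Adgre1, Cd163 and Mrc1 of the same list, looked at together with these 3, overlapped between the groups. Adgre1 was at 148, 469 and 279 in cKO replicates 1 to 3 and at 437, 137 and 231 in WT. In the same order Cd163 was at 45.1, 91.8 and 22.7 and at 77.0, 11.7 and 32.0. Mrc1 was at 286, 616 and 297 and at 705, 225 and 308. Its mean normalized count was lower in cKO (400 against 413 in WT). WT replicate 1 was the second highest of the 6 libraries by the sum of the 12 markers and the highest WT library for Mmp12. The part of these markers in the Mmp12 level was not tested. The opposite-strand gene Mmp1b overlaps exons of Mmp12 and was not analysed here.

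Mmp3 and Mmp10, the stromelysins, cut proteoglycans, laminin and fibronectin and open the proenzymes of collagenases and gelatinases. Mmp3 was read at 1015, 23.2 and 220 normalized counts in cKO replicates 1, 2 and 3 and at 24.7, 35.1 and 25.0 in WT. Mmp10 was read at 1603, 32.1 and 208 in cKO and at 45.4, 40.5 and 16.0 in WT. Both were far above WT in cKO replicates 1 and 3 and at the WT level in cKO replicate 2, which was the lowest of all 6 libraries for Mmp3.

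The 14.8-fold (Mmp3) and 18.1-fold (Mmp10) differences of the means therefore had a spread as large as themselves, with cKO means of 419 ± 525 and 614 ± 860 against WT means of 28.2 ± 5.93 and 34.0 ± 15.8 (SD, n = 3). The log2 fold change of Mmp3 was 2.61 ± 1.32 SE (interval -0.66 to 5.88, limma adjusted p = 0.426, exact permutation p = 0.4). That of Mmp10 was 2.80 ± 1.41 SE (interval -0.69 to 6.29, limma adjusted p = 0.424, exact permutation p = 0.3). Without cKO replicate 1 they were 1.34 and 1.38, and without cKO replicate 2 they were 4.04 and 4.18. The genes are close paralogs that share 140 of their 50-base stretches, 8.39% of those searched in Mmp3 (a further gene included) and 8.37% in Mmp10, so short reads from those stretches could be given to either.

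Mmp13, the main interstitial collagenase of rodents, cuts fibrillar collagen. Its normalized counts were 1031, 167 and 189 in cKO replicates 1 to 3 and 183, 61.2 and 89.9 in WT replicates 1 to 3. Only cKO replicate 1 was far from the rest, and WT replicate 1 exceeded cKO replicate 2. The means of 462 ± 493 and 111 ± 63.5 (SD, n = 3) gave a log2 fold change of 1.66 ± 0.81 SE (limma adjusted p = 0.416), or 0.82 without cKO replicate 1.

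Mmp2 is a gelatinase made chiefly by fibroblasts, and Mmp14 is the membrane-bound enzyme that activates it on the cell surface. Mmp2 was read at 1991, 870 and 873 normalized counts in cKO replicates 1 to 3 and at 834, 566 and 685 in WT replicates 1 to 3. The groups did not overlap, but cKO replicates 2 and 3 lay just above WT replicate 1. The means were 1245 ± 646 and 695 ± 134 (SD, n = 3), with a log2 fold change of 0.74 ± 0.36 SE (interval -0.14 to 1.62, limma adjusted p = 0.411). It was 0.34 without cKO replicate 1.

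Mmp14 was read at 2797, 1797 and 2062 normalized counts in cKO and at 1827, 1565 and 1564 in WT, in the same order of replicates. cKO replicate 2 lay below WT replicate 1, so the groups overlapped. The log2 fold change of 0.40 ± 0.16 SE had an interval of 0.03 to 0.78 and did not hold after adjustment (limma adjusted p = 0.340, unadjusted p = 0.0394). It was 0.22 without cKO replicate 1 and 0.54 without cKO replicate 2.

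Timp1 is the inducible inhibitor, made by stromal and other cells under inflammatory cytokines. Its normalized counts were 309, 22.1 and 57.8 in cKO replicates 1, 2 and 3 and 14.8, 28.8 and 13.0 in WT. It repeated the order of the stromelysins, with cKO replicate 1 far above, cKO replicate 3 next and cKO replicate 2 inside the WT range. The 6.87-fold difference of the means (130 ± 156 and 18.9 ± 8.65, SD, n = 3) gave a log2 fold change of 2.00 ± 0.95 SE (interval -0.32 to 4.31, limma adjusted p = 0.403). DESeq2 put it at 2.78 with an adjusted p of 0.0198 (0.0198 to 0.608 over all alternatives tried), and in limma it was 0.98 without cKO replicate 1 and 2.85 without cKO replicate 2.

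Timp2 and Timp3 differed little. Timp2, which inhibits MMPs and also takes part in the activation of pro-Mmp2 by Mmp14, was read at 1517, 1058 and 897 normalized counts in cKO and at 982, 711 and 832 in WT. Its log2 fold change was 0.44 ± 0.21 SE (interval -0.06 to 0.93, limma adjusted p = 0.397), or 0.22 without cKO replicate 1. Timp3, the inhibitor that binds to matrix and also blocks ADAM17, was read at 709, 459 and 432 in cKO and at 593, 252 and 339 in WT.

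The log2 fold change of Timp3 was 0.49 ± 0.35 SE (interval -0.36 to 1.34, limma adjusted p = 0.548), or 0.27 without cKO replicate 1, 0.83 without WT replicate 1 and 0.22 without WT replicate 2. In both inhibitors cKO replicate 1 was the highest library, WT replicate 1 the highest WT library, and the groups overlapped. Of the 50-base stretches of Timp3 transcripts 21.4% also occur in transcripts of other genes. The TIMP genes lie within or across synapsin and other genes, which were low. Syn1 around Timp1 was at 3.99 to 19.6 normalized counts, Cep295nl beside Timp2 at 0 to 3.32, and Syn3, whose exons overlap those of Timp3 on the other strand, at 21.97 to 27.9 (log2 fold change 0.14, limma adjusted p = 0.830).

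**Figure D2:**
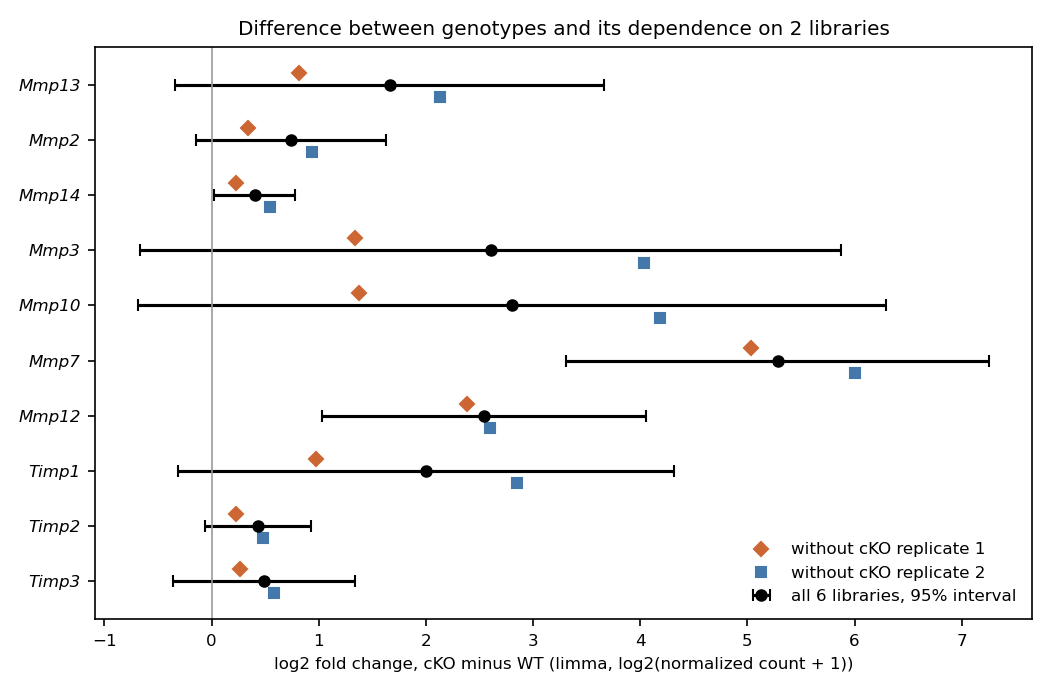
Log2 fold change of each gene, cKO minus WT, on the horizontal axis, from limma on log2(normalized count + 1) with all 6 libraries (black, with 95% interval) and without cKO replicate 1 (orange) or cKO replicate 2 (blue). The intervals of Mmp7, Mmp12 and Mmp14 exclude 0 before adjustment. Mmp7 and Mmp12 move least between the 3 fits for their size, and Mmp3 moves from 1.34 to 4.04.

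The members differed in how they ordered the libraries. cKO replicate 1 was the highest of the 6 for 9 of 10 members, where it was the highest for 24.4% of all genes, and it was above every WT library for all 10. cKO replicate 3 was above every WT library for 8 members and cKO replicate 2 for 4. The share of all genes with a single cKO library above every WT library was not computed, so these counts have no background beside them. Relative to the WT mean on the log2 scale, cKO replicates 1, 2 and 3 stood at 5.14, -0.25 and 2.93 for Mmp3, at 5.65, 0.05 and 2.71 for Mmp10 and at 4.05, 0.30 and 1.65 for Timp1. Mmp13 (3.35, 0.73 and 0.91) stood out in cKO replicate 1 alone. Mmp7 (5.79, 3.84 and 6.21) and Mmp12 (2.85, 2.43 and 2.34) were above every WT library in all 3, with the highest value in cKO replicate 3 for Mmp7 and in cKO replicate 1 for Mmp12. Mmp2, Mmp14, Timp2 and Timp3 stood at 0.76 to 1.54 in cKO replicate 1 and at 0.11 to 0.35 in the other cKO libraries.

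Neutrophil markers other than Ly6g had, on average, the order of the stromelysins and Timp1 (cKO replicate 1, then 3, then 2). Mmp2, Mmp13, Mmp14 and the fibroblast markers had that order as well, so it was not particular to these genes. Its share among all genes was not computed. The 10 listed neutrophil markers summed to 10021, 3030 and 3435 normalized counts in cKO replicates 1 to 3 and to 3006 to 3286 in WT. Cxcr2, Mpo and Ngp were at 0 in at least 1 library. Ly6g, looked at after its values were seen, went the other way. It was at 2486, 2832 and 2200 in cKO replicates 1 to 3 and at 2829, 3136 and 3064 in WT. Of 8 markers tested, 7 had a higher mean in cKO and Ly6g a lower one, at an unadjusted limma p under 0.05. Ly6g made up most of the sum in all libraries except cKO replicate 1. Without it the other 9 summed to 7534, 198 and 1235 in cKO and to 150 to 189 in WT. On the log2 scale they averaged 5.14, 0.34 and 2.53 above the WT mean in cKO replicates 1, 2 and 3. Their part in the levels of Mmp3, Mmp10, Mmp13 and Timp1 was not tested. In whole tissue, more cells of a type and more RNA per cell cannot be told apart.

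Fibroblast markers had the shape of the Mmp2 group. The 10 listed genes, none at 0, summed to 44329, 22351 and 23612 normalized counts in cKO replicates 1 to 3 and to 19312, 11312 and 14452 in WT replicates 1 to 3. They averaged 1.11, 0.39 and 0.41 above the WT mean on the log2 scale in cKO, and WT replicate 1 was the highest WT library, as it was for Mmp2, Mmp14, Timp2 and Timp3. Their part in these levels was not tested either. Endothelial markers summed to 3602, 2269 and 2175 in cKO and 1500 to 2235 in WT, and smooth muscle markers to 6203 to 11874 in cKO and 5742 to 22496 in WT.

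**Figure D3:**
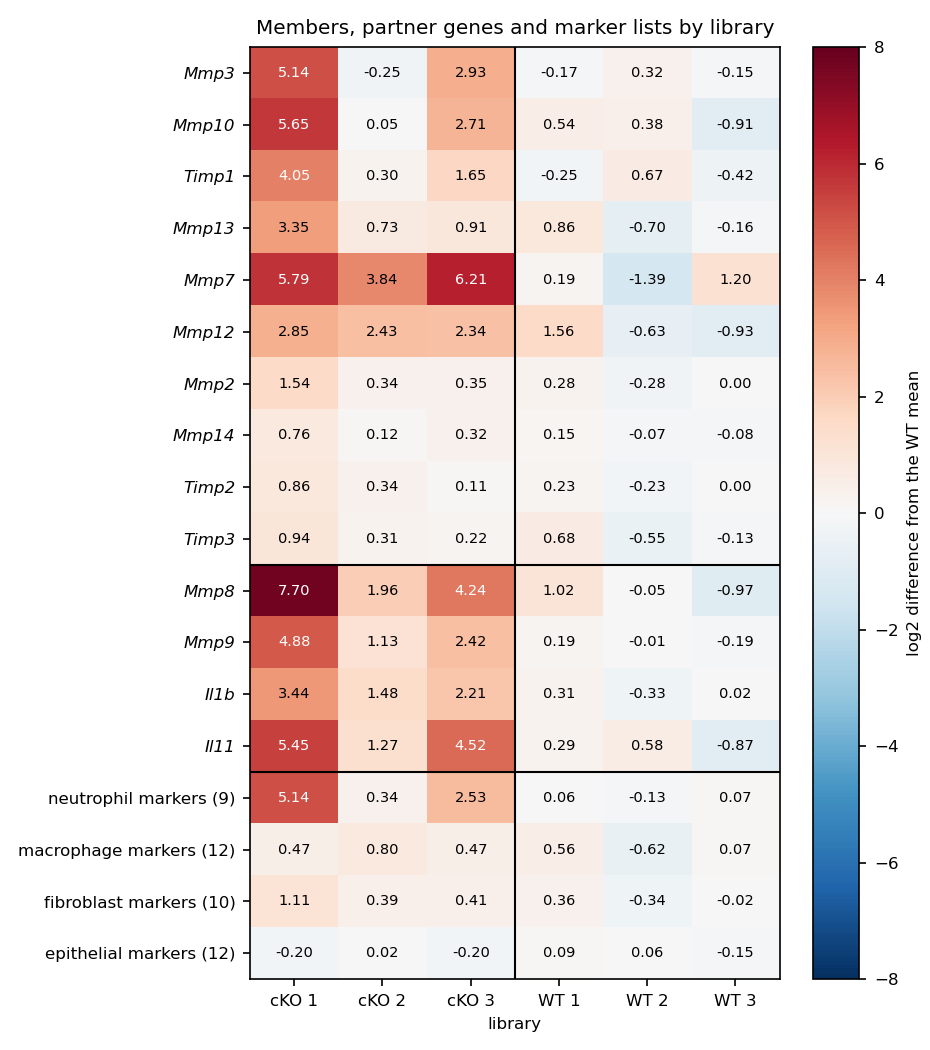
Difference of each library from the WT mean, in log2(normalized count + 1), for the 10 members (top), 4 partner genes (middle) and the mean of 4 marker lists (bottom, number of genes in brackets, Ly6g left out of the neutrophil list). Red is above and blue below the WT mean. Mmp3, Mmp10 and Timp1 share the order of the neutrophil markers over the cKO libraries, as do Mmp2, Mmp13, Mmp14, the 4 partner genes and the fibroblast markers. Mmp7 and Mmp12 are red in all 3 cKO libraries.

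To compare levels between genes, counts were divided by the exon length of each gene. In WT tissue Mmp14 was the most abundant at 277 ± 25.4 normalized counts per kb (SD, n = 3). Timp2 at 216 ± 34.8 and Mmp2 at 206 ± 39.8 followed, with overlapping ranges over the libraries. Within each WT library Timp2 was above Mmp2 (252, 182 and 213 against 247, 168 and 203 in WT replicates 1 to 3). Timp3 (48.4 ± 21.7) and Mmp13 (41.6 ± 23.8) formed the next level. Timp1 (21.2 ± 9.74), Mmp10 (19.7 ± 9.16) and Mmp3 (15.7 ± 3.29) formed the one after it, again with overlapping ranges. Mmp7 (2.17 ± 2.35) and Mmp12 (0.94 ± 1.07) were the lowest. In cKO tissue Mmp14 (372 ± 87.0), Mmp2 (369 ± 192) and Timp2 (297 ± 82.6) had overlapping ranges over the libraries. Within each cKO library Mmp14 was above Timp2 (469, 301 and 346 against 389, 272 and 230 in cKO replicates 1 to 3). Mmp2 (591, 258 and 259) was above both in cKO replicate 1 only. Mmp10 had a mean of 357 ± 500 that rested on cKO replicate 1, with 931, 18.6 and 121 per kb in cKO replicates 1 to 3. Mmp12 was still the lowest at 4.51 ± 0.92.

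The make-up of the enzyme pool varied more among the cKO libraries than among the WT libraries. In WT replicates 1, 2 and 3 Mmp2 and Mmp14 together made up 83.1%, 86.7% and 88.3% of the summed level of the 7 enzymes per kb, and in cKO replicate 2 80.9%. They made up 34.4% in cKO replicate 1 and 54.8% in cKO replicate 3. There the stromelysins took 48.5% and 22.03%, against 4.55% in cKO replicate 2 and 4.39% to 8.65% in WT.

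Timp1 likewise made up 42.2% of the 3 inhibitors in cKO replicate 1 and 18.7% in cKO replicate 3, but 7.06% in cKO replicate 2 and 4.89% to 13.2% in WT. The summed enzymes exceeded the summed inhibitors 3.74-fold, 1.96-fold and 3.17-fold in cKO replicates 1, 2 and 3, and 1.95-fold to 2.02-fold in WT. That ratio was about the same in cKO replicate 2 as in WT and higher in the other cKO libraries. It compares transcripts and not enzyme activity, and these shares of summed levels were not tested.

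**Figure D4:**
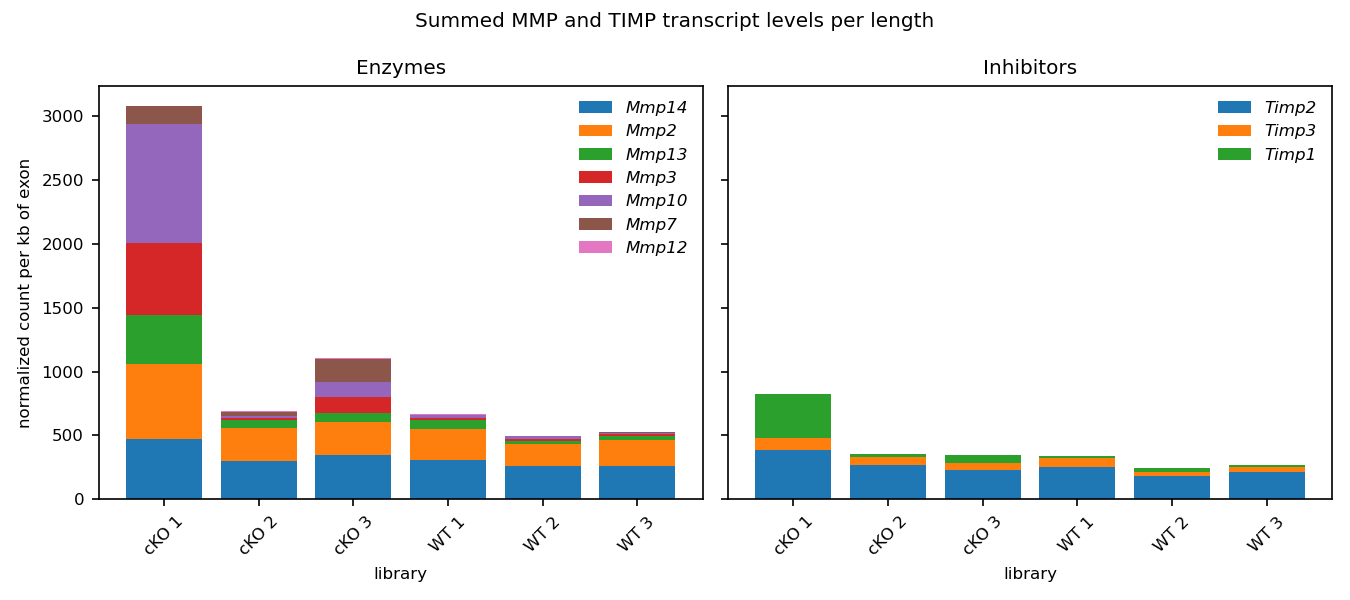
Summed level of the 7 enzymes (left) and the 3 inhibitors (right) in each library, in normalized counts per kb of exon, stacked by gene from 0 on a common axis. cKO replicate 1 has the tallest bar on both sides, and cKO replicate 2 resembles the WT libraries in height and make-up.

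Neighbours of the members on chromosome 9 were measured as well. Within the 427072 bases of the MMP cluster 8 MMP genes were measured, 5 of them members. Mmp8, the collagenase of neutrophils, was at 406, 6.63 and 36.1 normalized counts in cKO replicates 1 to 3 and at 2.96, 0.90 and 0 in WT (log2 fold change 4.63 ± 1.45 SE, limma adjusted p = 0.298), and without cKO replicate 1 it was too low to test. Mmp27 and Mmp20 were too low to test, with Mmp27 at 4.42 to 7.67 in cKO and 0.99 to 2.00 in WT. Mmp20 was at 0 in every cKO library and at 0.99, 0 and 1.00 in WT replicates 1 to 3. The 6 tested cluster genes had log2 fold changes of 1.66 to 5.28. Mmp7, Mmp8 and Mmp12 among them passed the filter only through their cKO libraries, so this range is not independent of the filter.

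The 8 other protein-coding genes within 500000 bases had log2 fold changes of -0.43 to 0.51. At an unadjusted p under 0.05 limma gave 1 of them, Tmem123 (0.47), looked at after its value was seen.

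**Figure D5:**
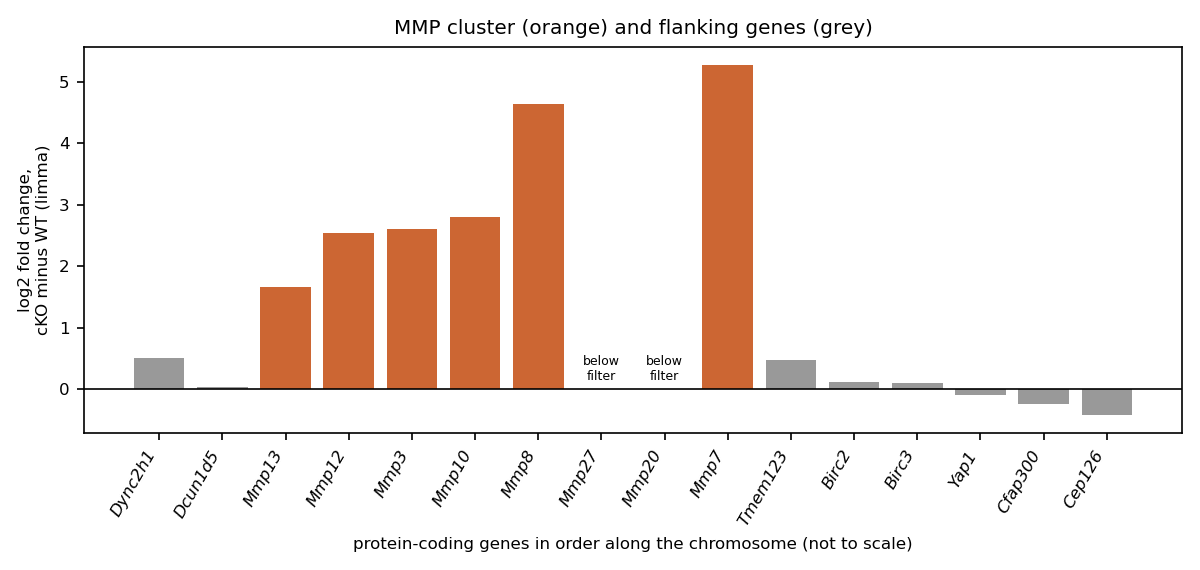
Log2 fold change, cKO minus WT, on the vertical axis for the protein-coding genes in and around the chromosome 9 cluster, in order along the chromosome and not to scale. MMP genes are orange and flanking genes grey. The 6 tested MMP genes lie at 1.66 or above and the flanking genes between -0.43 and 0.51, with Mmp27 and Mmp20 below the filter. Mmp7, Mmp8 and Mmp12 passed the filter only through their cKO libraries.

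A list of 18 genes held the other MMP genes, Timp4 and the membrane-anchored inhibitor Reck, of which 16 were in the table and 11 were tested, 9 with a higher and 2 with a lower mean in cKO (median log2 fold change 0.59). None passed limma's adjusted test, and 4 were higher at an unadjusted p under 0.05, against 6.91% of all genes. The 5 with the smallest p were Mmp28, Mmp8, Mmp9, Mmp23 and Mmp19. Mmp9, the gelatinase of neutrophils and macrophages, was at 533, 38.7 and 95.9 normalized counts in cKO replicates 1 to 3 and at 19.8, 17.1 and 14.98 in WT. All 3 cKO libraries were above WT (log2 fold change 2.81 ± 0.92 SE, limma adjusted p = 0.310, or 1.77 without cKO replicate 1).

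Mmp28, an epithelial enzyme known as epilysin, was at 497, 244 and 387 in cKO and at 222, 219 and 178 in WT, also without overlap (0.81 ± 0.25 SE, limma adjusted p = 0.281). Mmp23 and Mmp19 had log2 fold changes of 0.59 and 0.94, and that of Mmp19 was 0.50 without cKO replicate 1.

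The related ADAM and ADAMTS proteinases, which shed membrane proteins and cut proteoglycans, were mostly higher on average. Of 28 listed, 24 were tested, 20 with a higher mean in cKO (median 0.30). None passed limma's adjusted test, and 11 were higher and 1 lower at an unadjusted p under 0.05, against 6.91% and 7.08% of all genes. Adamts4, an aggrecanase that cuts versican, was at 344, 220 and 237 normalized counts in cKO replicates 1 to 3 and at 130, 49.5 and 76.9 in WT. It did not overlap between groups (log2 fold change 1.71 ± 0.36 SE, limma adjusted p = 0.192) and kept 1.52 without cKO replicate 1.

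Adamts1 (1.54), Adamts9 (1.61) and Adamts7 (1.31), further members of the ADAMTS group, did not overlap either, with limma adjusted p of 0.202, 0.215 and 0.280. Adamts7 was at 0.82 without cKO replicate 1. Adam10, the sheddase of Notch, had a log2 fold change of 0.32.

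Among 16 genes that activate proenzymes or clear the enzymes, 12 were tested, 10 with a higher and 2 with a lower mean (median 0.32). None passed limma's adjusted test, and 3 were higher and 1 lower at an unadjusted p under 0.05, against 6.91% and 7.08% of all genes. Lrp1, the receptor that takes up MMP and TIMP complexes, was at 4556, 4765 and 4692 normalized counts in cKO replicates 1 to 3 and at 3817, 3858 and 3790 in WT. The libraries of each group lay close together and apart from the other group (log2 fold change 0.29 ± 0.07 SE, limma adjusted p = 0.211).

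Plat, the tissue plasminogen activator, was at 0.93 ± 0.29 SE without overlap (limma adjusted p = 0.282). The proprotein convertases Pcsk6 and Pcsk5 had log2 fold changes of -0.71 and 1.29, the latter 0.72 without cKO replicate 1.

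Of 27 cytokines and transcription factors known to induce MMP genes, 25 were tested, 20 with a higher and 5 with a lower mean (median 0.25). None passed limma's adjusted test, and 5 were higher and 2 lower at an unadjusted p under 0.05, against 6.91% and 7.08% of all genes. Il1b, the inflammatory cytokine that induces Mmp3 and Mmp13 in fibroblasts, was at 993, 255 and 424 normalized counts in cKO replicates 1 to 3 and at 113, 72.0 and 91.9 in WT. It was above WT in every cKO library and had the order of the stromelysins over them (log2 fold change 2.38 ± 0.50 SE, limma adjusted p = 0.211).

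Il11, a stromal cytokine of the IL-6 family, was at 317, 16.6 and 166 in cKO and at 7.90, 9.90 and 3.00 in WT, also without overlap (3.75 ± 1.12 SE, limma adjusted p = 0.286, or 2.89 without cKO replicate 1). Il11 passed the filter only through its cKO libraries. Cebpb and Il6st, a transcription factor of inflammation and the shared receptor of the IL-6 family, had log2 fold changes of 0.65 and 0.37, and that of Il6st was 0.22 without cKO replicate 1. Fosb, a partner of Jun in AP-1, was lower in every cKO library, at 69.0, 101 and 62.9 against 103, 260 and 162 (-1.09 ± 0.35 SE, limma adjusted p = 0.284).

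All 29 listed matrix substrates were tested, and all 29 had a higher mean in cKO (median 0.86). None passed limma's adjusted test. At an unadjusted p under 0.05, 18 were higher (6.91% of all genes), and 17 had every cKO library above WT (10.5% of all genes). cKO replicate 1 was the highest library for 25 of the 29, and for 24.4% of all genes. Fn1, which encodes fibronectin, was at 4216, 4411 and 4132 normalized counts in cKO replicates 1 to 3 and at 3348, 2246 and 2307 in WT. Unlike the stromelysins it was as high in cKO replicate 2 as in the other cKO libraries (log2 fold change 0.72 ± 0.15 SE, limma adjusted p = 0.192).

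Hspg2, the basement membrane proteoglycan perlecan, was as even, at 2414, 2259 and 2177 against 1805, 1474 and 1655 (0.48 ± 0.10 SE, limma adjusted p = 0.171). The fibrillar collagen genes Col1a1 (1.14 ± 0.32 SE) and Col1a2 (0.98 ± 0.26 SE) and the elastin gene Eln (1.08 ± 0.30 SE) did not overlap either and were highest in cKO replicate 1. Fibroblast markers, given above, moved with this list, but Col1a1 and Col1a2 are in both lists, so the likeness is partly built in. The part of fibroblasts in the matrix levels was not tested.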

How the data were processed

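Whole-colon RNA sequencing of 3 cKO and 3 WT mouse libraries was analysed from 1 deposited table of 27202 genes. The values the authors deposited are a normalized signal, reads per gene divided by 1 factor per library. Every value was a whole multiple of its library's smallest step (tolerance 0.001 reads), so whole reads were recovered for 100% of values. In WT replicate 3 the step, 0.999, is too near 1 for an independent check. The submitters' processing notes name HISAT2 2.0.5 and featureCounts 1.5.0-p3, and a human build, hg18. The coordinates are mouse, with 97.3% of 27164 matched genes identical to GENCODE M21 (GRCm38). The tool behind the factors is not given in the sources used here. The authors' group means, fold changes, p-values and adjusted p-values were not used.

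Libraries were grouped by their titles. The main test was limma 3.58.1 (R 4.3.3, trend and robust) on log2(value + 1), for genes with a mean of at least 10, with Benjamini-Hochberg adjustment over 16246 genes and a threshold of 0.05. Log2 fold changes, and the higher or lower means counted in gene lists, are on that scale, which understates low genes. Alternatives were edgeR 4.0.16 and DESeq2 1.42.0 on recovered reads (DESeq2 left 953 adjusted p-values undefined), other filters, pseudocounts and scalings, library weights, a replicate block and leaving out each library. Depth was 14914367 to 17547270 reads, and floors of 3 reads cover counting error only. No pair of libraries was a duplicate. On simulated counts for this comparison (10 runs, 200 of 16246 genes changed) limma recovered 52.6% of changes of log2 size 1 and 81.9% of size 2, with 7.67% of its calls false. The simulated libraries of a group differed only in depth and independent noise, without the differences among cKO libraries seen here. These rates therefore need not hold for the real libraries. The genes and lists were chosen with earlier results of these data known. Named genes were the 10 members, the 5 smallest p in each related list, overlapping genes and Nedd4l. One gene of that rule is not reported here.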

Additional observations from a re-analysis of the deposited data

How the results depend on the processing

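Over 15 alternatives the 10 genes gave 149 log2 fold changes (Mmp12 was not tested at a mean of at least 50), all above 0, and 5 of them passed the threshold that limma with all libraries did not. Mmp7 passed with library weights (5.71), in DESeq2 (5.78) and without cKO replicate 2 (6.00), within a range of 4.59 to 6.00 on leaving out each library, and was at 3.93 with a pseudocount of 5 and 5.74 with 0.5. Mmp12 passed with library weights (2.49) and Timp1 in DESeq2 (2.78). Library weights called 2 members, 2 other MMP genes, 4 ADAM genes, 2 activation genes, 2 inducers and 2 matrix genes, DESeq2 called 2, 3, 4, 2, 3 and 11, and leaving out 1 library called 0 to 1 member, 0 to 1 other MMP gene and 0 to 2 inducers, the calls coming without cKO replicate 2. Among all genes, limma called 0 higher and 0 lower. This became 262 and 369 with library weights, 253 and 171 in DESeq2, 7 and 23 with no filter, 0 to 70 and 0 to 52 on leaving out 1 library, with 70 and 52 without cKO replicate 2 and 2 and 22 without cKO replicate 1. The cause was not tested.

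Without cKO replicate 1, log2 fold changes fell below 1 for Mmp13 (0.82) and Timp1 (0.98), and members at an unadjusted p under 0.05 numbered 2 (5.27% of all genes), against 6 (8.94%) without cKO replicate 2. Members without overlap numbered 3 and 8 (15.1% and 18.5% of all genes). With a replicate block limma called 0 genes higher and 0 lower, and no member. At an unadjusted p under 0.05 that limma fit gave 8 members higher (7.41% of all genes), against 3 without the block (6.91%). Over all tested genes, deviations of same-numbered libraries from their group means had correlations of -0.03, -0.09 and -0.06. The labels do not say whether the numbers pair the libraries, and these correlations cannot decide it. Of 416 values for 28 other genes of the naming rule, 0 reversed and 34 passed the threshold. Detection of differences as small as those of Mmp14, Timp2 and Timp3 was not simulated.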
